A study of Mus musculus with 27 samples.

Results

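The genes described here are 42 genes of mitosis, the phase of the cell cycle in which duplicated chromosomes are separated. They were taken by name from a table of 24418 entries, and all 42 were found. According to the sources used here, the table holds bulk RNA sequencing of haematopoietic stem and progenitor cells, highly purified (HSPCs, the cells from which all blood cells derive). They are of C57BL/6 mice, in 27 libraries. The markers of E12.5 PL, given below, depart from this description. The libraries form 9 groups of 3. The embryonic groups are E12.5 PL and, from FL (fetal liver), E12.5 FL and E16.5 FL. The groups after these come from BM (bone marrow), namely Perinatal BM and, by age in weeks, 1w, 3w, 4w, 6w and 8w BM. What PL abbreviates is left unsaid by the labels. No genotype or treatment separates the groups, which differ in age and source. The sources used here do not give the sorting markers, the sex of the animals, the perinatal day or how many animals stand behind a library, so a p-value reflects the spread among libraries, which may be technical. Expression is given in FPKM (sequenced fragments scaled by transcript length and library total), which allows levels of different genes to be set side by side.

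A cell enters mitosis when cyclin B and Cdk1 become active, builds a spindle of microtubules, attaches each chromosome to it through the kinetochore, and waits until the spindle checkpoint is satisfied. The anaphase-promoting complex (APC/C) then destroys securin and cyclin B, the chromosomes separate, and the cell divides by cytokinesis. The mRNAs of these genes rise together in the G2 and M phases in dividing cells and are repressed in resting cells. HSPCs of the fetal liver are known to divide actively, whereas most stem cells of adult bone marrow rest. In a bulk sample, fewer dividing cells and less of each mRNA per dividing cell cannot be told apart.

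By role, the members were 7 genes of mitotic entry (Cdk1, its cyclins Ccna2, Ccnb1 and Ccnb2, the activating phosphatases Cdc25b and Cdc25c, and the transcription factor Foxm1) and 5 of the Aurora and Polo kinases and the chromosomal passenger complex (Aurka, Aurkb, Plk1, Birc5, which encodes survivin, and Incenp). The spindle checkpoint was represented by Bub1, Bub1b, Bub3, Mad2l1 and Ttk. Centromere and kinetochore were represented by Cenpa, Cenpe, Cenpf, Ndc80, Nuf2, Spc25 and Sgol1. Spindle motors and microtubule proteins were Kif11, Kif2c, Kif4, Kif18b, Tpx2, Hmmr and Nusap1. Anaphase genes were Cdc20 and Ube2c, which activate or feed the APC/C, Pttg1 (securin) and Espl1 (separase). Cytokinesis genes were Kif20a, Kif23, Prc1, Ect2 and Anln. Top2a, a topoisomerase that untangles chromosomes, and Mki67, which encodes the proliferation antigen Ki-67, completed the set.

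Genes of this kind are known to share promoter elements, the CCAAT box bound by NF-Y and the cell cycle genes homology region (CHR) bound by the MuvB complex. RefSeq promoters (GRCm38.p6, 250 bases before to 50 bases after the gene start) were found for 35 members. CCAAT, searched on both strands, was present in 27 of 35 members (77.1%), counting a gene if any promoter of it held the motif. Counted the same way it was present in 41.0% of 26990 other genes, and over single promoters in 37.4% of all 32851. A second match in the same promoter was found in 18 members (51.4%), 13.2% of other genes and 11.7% of all promoters. TTTGAA on either strand was present in 25 members (71.4%), 20.2% of other genes and 17.9% of all promoters. The variant TTCGAA, which reads the same on both strands, was present in 5 members (14.3%), 1.79% of other genes and 1.56% of all promoters. TTTGAA and TTCGAA are the CHR forms counted here. A CCAAT followed by either CHR form with 25 to 45 bases between their first bases, a distance range chosen from general knowledge after the motifs had been counted, was present in 16 members (45.7%), 0.900% of other genes and 0.849% of all promoters. Those were Bub3, Ccnb2, Cdc20, Cdc25b, Cdk1, Ect2, Hmmr, Kif11, Kif18b, Mki67, Plk1, Prc1, Sgol1, Top2a, Ttk and Ube2c. Birc5, Mad2l1, Nuf2, Nusap1 and Pttg1 held neither motif in this window. A match is a string of letters and not a measured binding site.

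The 150 bases upstream of the start are shown for 3 members with repeated boxes (Ccnb2, Hmmr and Top2a), for Mki67, whose level departs from the rest below, and for Birc5, which holds neither motif. Capitals mark CCAAT or its reverse complement ATTGG, and the CHR letters TTTGAA, which read TTCAAA on the other strand, and the variant TTCGAA. In Ccnb2 the first bases of the 3 boxes lie 33 and 33 bases apart.
Ccnb2, chr9:70421555-70421704, minus strand: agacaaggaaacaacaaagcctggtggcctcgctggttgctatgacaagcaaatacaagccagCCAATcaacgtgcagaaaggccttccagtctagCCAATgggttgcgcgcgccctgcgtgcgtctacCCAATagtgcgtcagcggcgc
Hmmr, chr11:40733438-40733587, minus strand: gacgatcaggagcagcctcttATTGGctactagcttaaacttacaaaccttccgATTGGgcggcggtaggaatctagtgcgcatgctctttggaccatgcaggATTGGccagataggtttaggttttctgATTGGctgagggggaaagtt
Top2a, chr11:99024190-99024339, minus strand: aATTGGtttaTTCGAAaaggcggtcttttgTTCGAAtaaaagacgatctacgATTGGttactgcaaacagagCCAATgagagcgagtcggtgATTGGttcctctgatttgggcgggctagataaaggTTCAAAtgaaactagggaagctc
Mki67, chr7:135716380-135716529, minus strand: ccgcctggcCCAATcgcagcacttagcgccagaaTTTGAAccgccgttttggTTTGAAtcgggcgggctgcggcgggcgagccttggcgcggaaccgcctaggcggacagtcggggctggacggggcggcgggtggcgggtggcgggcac
Birc5, chr11:117849087-117849236, plus strand: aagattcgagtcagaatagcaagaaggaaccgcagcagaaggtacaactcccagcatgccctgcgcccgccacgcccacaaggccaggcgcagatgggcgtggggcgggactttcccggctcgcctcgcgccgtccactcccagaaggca

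Many CHR matches lay just after the start. Upstream of the start alone, TTTGAA was present in 12 of 35 members (34.3%) and in 18.2% of other genes, against 71.4% and 20.2% once the 50 bases after the start were included. The 30 bases around the match (motif in capitals) are shown for 5 members that the expression results turn on. In Plk1, Cdc25b, Hmmr and Ccnb2 the match follows a CCAAT box by 44, 35, 28 and 25 bases, counted between first bases, and in Aurka it begins 33 bases after the start with no CCAAT at that distance.
Plk1, chr7:122159453-122159482, plus strand: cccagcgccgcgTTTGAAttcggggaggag
Aurka, chr2:172370521-172370550, minus strand: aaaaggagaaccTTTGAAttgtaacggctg
Hmmr, chr11:40733412-40733441, minus strand: agttgaggtaaaTTTGAAttcaggcgagct
Ccnb2, chr9:70421533-70421562, minus strand: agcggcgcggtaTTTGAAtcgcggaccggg
Cdc25b, chr2:131186943-131186972, plus strand: ccgctgttatttTTCGAAtatataaggagg

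Total counts are not given, so the depth is unknown. A relative depth estimated from the steps between low values lay between 0.687 and 1.72 times the median library. FPKM summed to 519810 to 763033 per library. The 12 HSPC markers checked (among them Kit, Cd34 and Ptprc) each had a mean FPKM of at least 1 in 8 of the 9 groups, and 11 of 12 did in E12.5 PL. Their summed FPKM was 480 to 492 in E12.5 PL and 906 to 1201 in the other 24 libraries. Ptprc was at 6.055 to 11.1 FPKM in E12.5 PL against 63.5 to 67.9 in E12.5 FL, and Flt3 at 5.21 to 8.98 against 81.9 to 88.8. Hlf was at 2.07 to 3.13 against 41.1 to 42.2, and Runx1 at 6.78 to 14.6 against 73.5 to 77.3. Procr (80.7 to 189 against 3.41 to 4.585) and Gata2 (66.2 to 83.1 against 40.9 to 46.9) were higher in E12.5 PL. In E12.5 PL, 10 trophoblast markers summed to 2180 to 2485 FPKM, compared with 13.7 to 16.0 in E12.5 FL. Stromal markers (6) summed to 546 to 1588 against 6.03 to 6.82, and endothelial markers (7) to 705 to 920 against 234 to 261. The E12.5 PL libraries thus stood apart from the rest, and by these markers they did not hold HSPCs alone. Every result on the other groups was therefore also computed without the E12.5 PL libraries.

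The members were expressed in every library, from 3.36 FPKM (Cenpf) to 223 FPKM (Ube2c), and together made up 0.215 to 0.399% of a library's FPKM. Their mean level on the log2(FPKM + 1) scale was highest in E12.5 FL (5.32 ± 0.04, SD, n = 3) and E16.5 FL (5.11 ± 0.07). It was lowest in Perinatal BM (4.65 ± 0.08) and stood at 5.06 ± 0.05 in 1w BM, before 4.98 ± 0.03 in 3w BM, 4.80 ± 0.03 in 4w BM, 4.87 ± 0.07 in 6w BM and 4.83 ± 0.15 in 8w BM. E12.5 PL stood at 4.82 ± 0.02. The course with age was therefore not a steady decline: the level in Perinatal BM lay below both the fetal groups and 1w BM, with no overlap of libraries. The 8w libraries were the most spread, at 4.96, 4.86 and 4.66, and overlapped those of 4w and 6w BM. The 8w library at 4.66 also lay within the range of the Perinatal BM libraries (4.56 to 4.73). The 8w library at 4.96 lay just above the lowest 3w BM library (4.95).

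**Figure D1:**
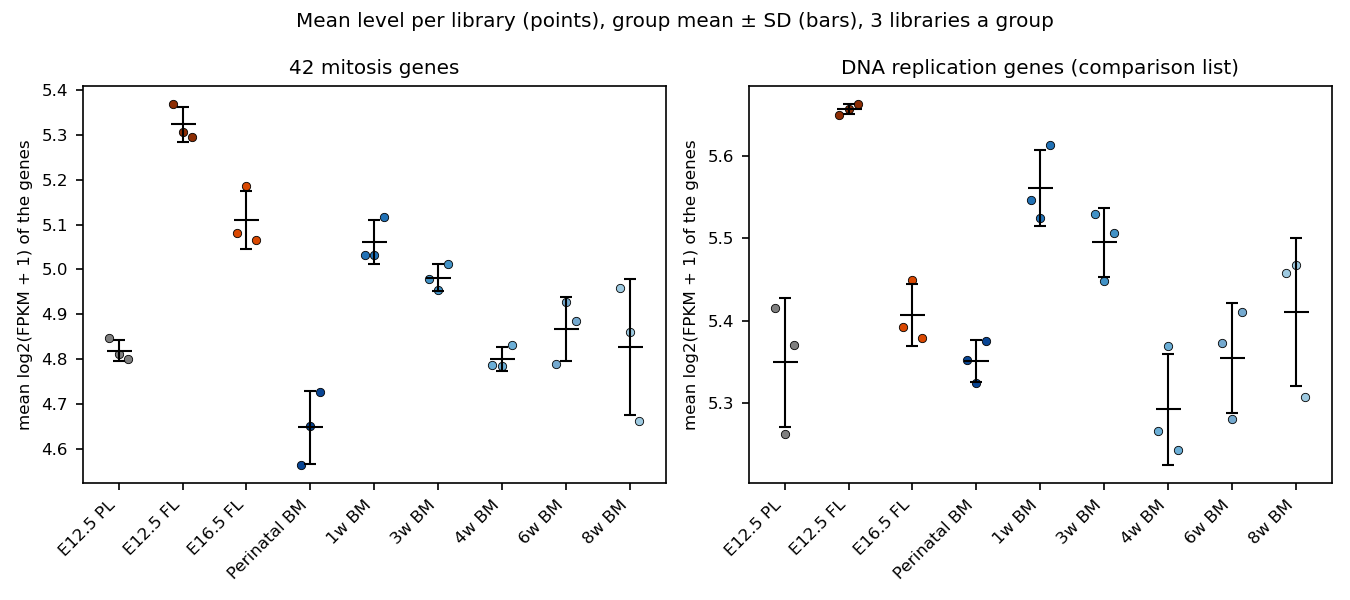
Mean log2(FPKM + 1) of the 42 mitosis genes (left) and of 41 DNA replication genes (right) in each library (points), by group, with the group mean and SD (bars, n = 3). The axes do not start at 0. The mitosis genes are lowest in Perinatal BM (4.65), a group in which the replication genes stand at 5.35, close to E16.5 FL (5.41).

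Leaving out E12.5 PL, 36 of 42 members had their highest group mean in E12.5 FL and 29 of 42 their lowest in Perinatal BM. The shares of all genes with these extremes were not computed, so these counts have no background beside them. The ratio of the highest to the lowest group mean ran from 1.24 for Foxm1 to 2.98 for Aurka, with a median of 1.71. The members therefore remained expressed at every age, and the differences are changes of level within a range of less than 3-fold.

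**Figure D2:**
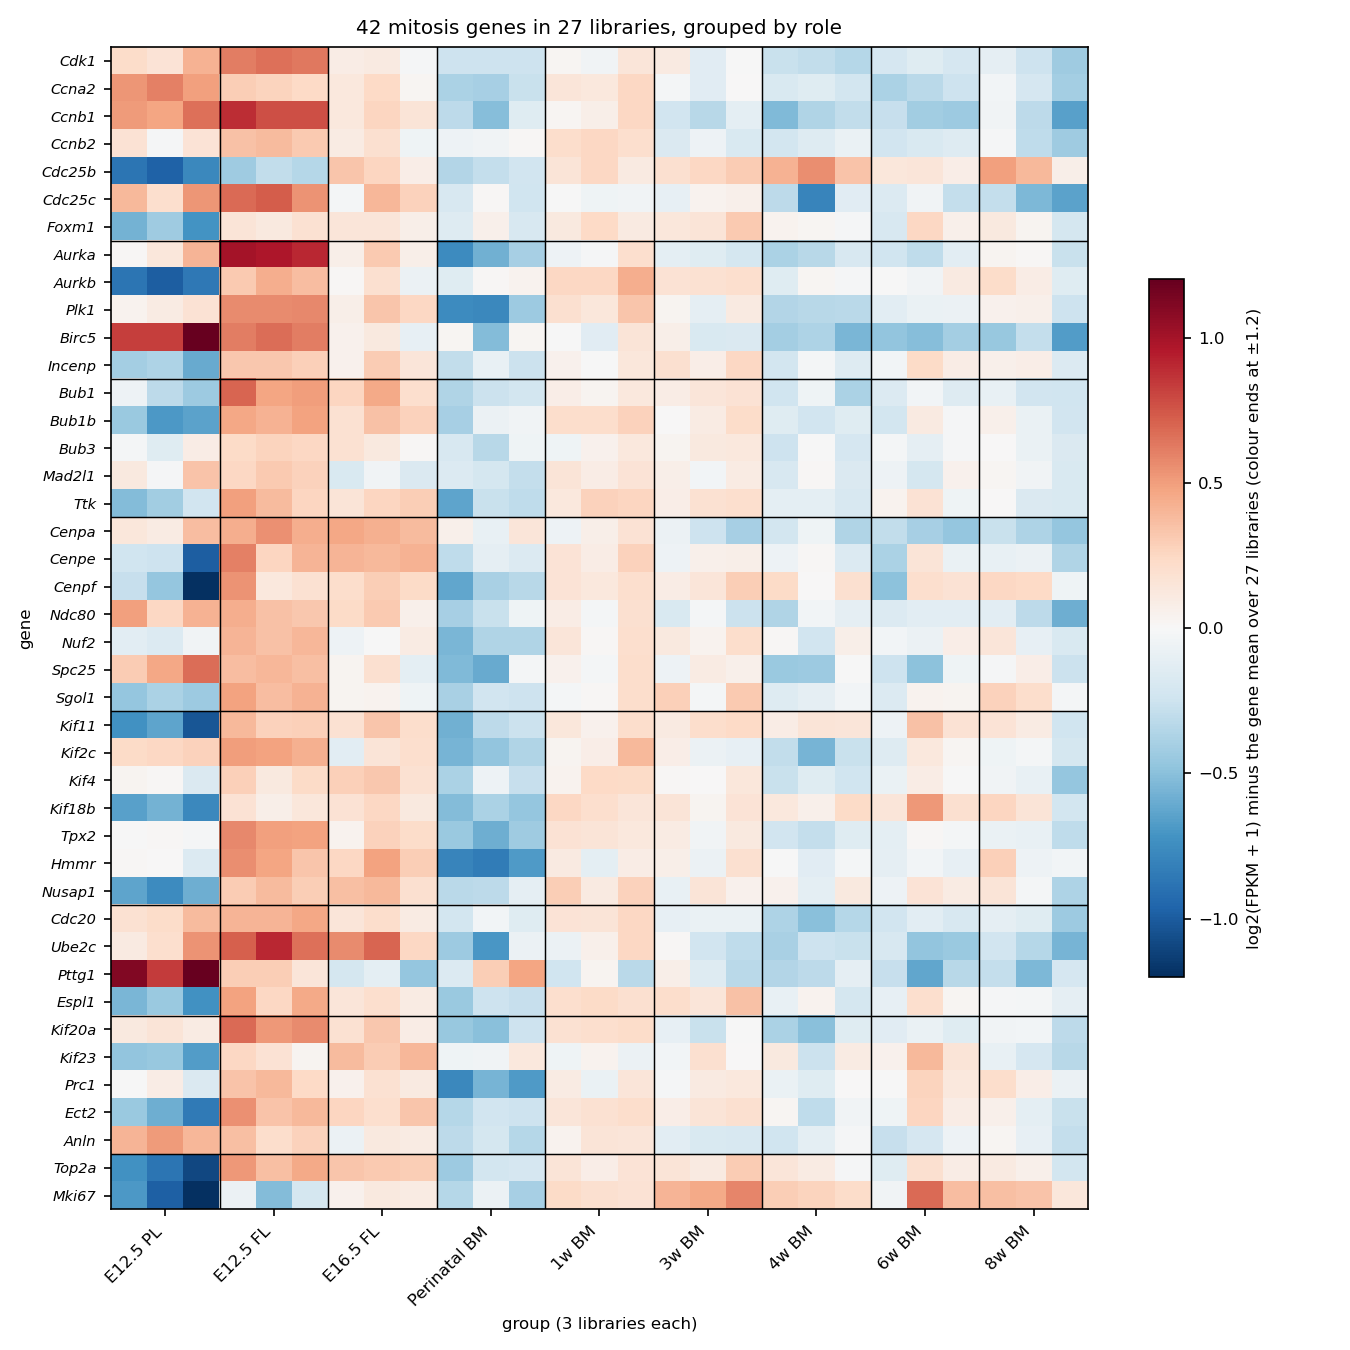
Each row is a mitosis gene, each column a library, and colour gives log2(FPKM + 1) minus the gene's mean over 27 libraries (red higher, blue lower), with horizontal lines between roles. E12.5 FL is red in most rows and Perinatal BM blue, while Mki67, Cdc25b and Pttg1 follow courses of their own.

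Each gene was tested with limma on log2(FPKM + 1), with adjustment over 13350 genes and a threshold of 0.05, and folds are on that scale, which understates them at low levels. Shares of all genes are at the adjusted threshold throughout. No such share was computed for the counts given at an unadjusted p. All 42 members passed the filter for testing. In E12.5 FL, 33 members were higher than in E12.5 PL and 3 lower, where 33.2% of all genes were called higher and 41.0% lower. The median difference of the members was 0.50 (log2), against -0.06 for all genes. Top2a was at 174, 156 and 167 FPKM in E12.5 FL and at 73.2, 65.6 and 56.3 in E12.5 PL, a 2.54-fold difference (adjusted p = 1.58e-11). Aurkb, the kinase of the passenger complex, was at 58.4, 63.6 and 60.8 in E12.5 FL and 25.02, 23.0 and 25.4 in E12.5 PL (2.43-fold, adjusted p = 2.70e-12). Neither gene's groups overlapped.

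The 3 members that were lower in E12.5 FL were Pttg1, Birc5 and Ccna2. Pttg1 was at 25.6, 25.7 and 23.0 FPKM against 46.0, 37.8 and 59.0 in E12.5 PL (1.86-fold lower, adjusted p = 2.96e-05). Ccna2 was 1.21-fold lower (84.3 ± 1.9 against 102 ± 4, adjusted p = 0.00201). Birc5 was 1.26-fold lower (109 ± 2 against 139 ± 24, adjusted p = 0.0249), and its call was lost without E12.5 PL replicate 3 (adjusted p = 0.192), E12.5 FL replicate 1 (0.0573) or E12.5 FL replicate 3 (0.0559). Gene length moved with this contrast. With members split at their median exonic length of 4798 bases, the 21 longer minus the 21 shorter members differed by -0.16, -0.18 and -0.41 (log2, relative to their 27-library means) in the E12.5 PL libraries and by -0.05, -0.15 and -0.11 in E12.5 FL. All other tested genes gave -0.20, -0.18 and -0.42 and 0.03, -0.08 and 0.01, so the third E12.5 PL library was low in long genes throughout. Mki67, one of the longest members at 10061 bases, was at 34.8, 28.2 and 17.1 FPKM in E12.5 PL. The part of length and of the trophoblast, stromal and endothelial markers in this contrast was not tested.

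From E12.5 FL to E16.5 FL, 19 members fell and 1 rose, where 15.6% of all genes fell and 19.0% rose. The median difference was -0.22, against 0.01 for all genes. Aurka, the centrosome kinase that prepares spindle poles, fell from 57.9, 56.7 and 54.3 FPKM to 30.1, 35.7 and 30.02 (1.74-fold, log2 difference -0.80, SE 0.11, adjusted p = 5.77e-06). Ccnb1 fell from 96.8, 89.1 and 89.3 to 56.8, 62.2 and 58.0 FPKM (1.55-fold, adjusted p = 0.000226), and Cdk1 from 64.7, 66.9 and 65.4 to 44.7, 45.4 and 41.5 (1.49-fold, adjusted p = 6.99e-06). These genes' groups did not overlap.

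Of the Aurora, Polo and passenger genes, 4 of 5 fell (Incenp, at 54.4 ± 0.8 and then 49.3 ± 4.4 FPKM, did not pass), as did 4 of 7 mitotic entry and 3 of 4 anaphase genes. The anaphase count was 1 without E12.5 FL replicate 1 or E16.5 FL replicate 3, which ended the calls of Pttg1 and Espl1. Falls numbered 2 of 7 among spindle motors (Kif2c and Tpx2) and 2 of 7 among centromere and kinetochore genes (Nuf2 and Sgol1). They numbered 2 of 5 among checkpoint and 2 of 5 among cytokinesis genes. Each of these counts of 5 was 1 without E12.5 FL replicate 1, E12.5 FL replicate 3 or E16.5 FL replicate 1. That of checkpoint genes was also 1 without E16.5 FL replicate 3. Differences between roles were not tested. Cenpa, the centromeric histone, was at 121 ± 6 and then 117 ± 4 FPKM, Top2a at 166 ± 9 and then 151 ± 2, and Hmmr, a spindle-binding protein, at 24.3 ± 1.9 and then 22.4 ± 2.1, none of them past the threshold. The only member that rose was Cdc25b, from 9.003, 9.92 and 9.57 to 15.9, 15.03 and 13.2 FPKM (1.49-fold, adjusted p = 6.65e-05). Without the E12.5 PL libraries Mki67 was called as well (adjusted p = 0.0344). Markers of several other blood lineages, but not of all, were higher in E16.5 FL. B cell precursor markers (7) summed to 23.4 to 27.5 FPKM in E12.5 FL and 68.6 to 202 in E16.5 FL, macrophage markers (6) to 20.8 to 24.5 and 40.7 to 47.7, and neutrophil markers (7) to 627 to 715 and 730 to 1534. The neutrophil gene S100a8 was at 0.951 to 2.68 and then at 145 to 381 FPKM. Mpo, of the same list, was at 624 to 709 and then 436 to 730, with overlap. Mast cell markers (6) summed to 31.6 to 38.8 and then 11.4 to 58.5, also with overlap. The part of these markers in the fall was not tested.

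From E16.5 FL to Perinatal BM, 34 members fell and 1 rose, where 14.2% of all genes fell and 14.2% rose. The median difference was -0.48, against 0.00 for all genes, and the count of members that fell was 31 to 34 when any one library was left out. Every spindle motor gene fell (7 of 7), as did every centromere and kinetochore gene (7 of 7) and every cytokinesis gene (5 of 5). In the other roles, 4 of 5 checkpoint, 3 of 5 Aurora, Polo and passenger, 3 of 4 anaphase and 4 of 7 mitotic entry genes fell. Some of these calls rested on single libraries. Of the centromere genes, 5 fell without E16.5 FL replicate 1, E16.5 FL replicate 2 or Perinatal BM replicate 1, each of which ended the calls of Spc25, whose groups overlapped, and Sgol1. Kif23 was not called without Perinatal BM replicate 1 (adjusted p = 0.0535).

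The largest fall was that of Hmmr, from 20.9, 24.8 and 21.6 FPKM to 9.61, 9.31 and 10.5 (2.16-fold, log2 difference -1.11, SE 0.10, adjusted p = 1.83e-08). Every Perinatal BM library was below every library of the other 8 groups for this gene. Plk1, the Polo kinase, fell from 32.6, 39.1 and 37.0 to 17.9, 17.7 and 22.7 FPKM (1.83-fold, adjusted p = 3.53e-07). Ube2c, the ubiquitin-conjugating enzyme of the APC/C, fell from 176, 193 and 141 to 87.3, 72.4 and 113 FPKM (1.88-fold, adjusted p = 7.59e-05).

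Prc1, which bundles the central spindle, fell 1.73-fold (from 32.7 ± 1.6 to 18.5 ± 1.4, adjusted p = 9.07e-07), and Tpx2, which activates Aurora A on the spindle, fell 1.59-fold (from 41.5 ± 3.6 to 25.7 ± 1.5, adjusted p = 4.46e-07). Both groups of both genes were clear of each other. Members that did not pass were Cdc25c, Mki67, Foxm1, Birc5, Ccnb2, Mad2l1 and Aurkb. Aurkb was at 48.3 ± 4.6 and then 45.8 ± 3.2 FPKM, while its partner gene Incenp fell 1.30-fold, and Ccnb2 was at 64.3 ± 5.5 and then 59.4 ± 1.6 while Ccnb1 fell 1.42-fold. The differences between these pairs were not tested.

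The member that rose was Pttg1, the securin gene, from 17.8, 19.0 and 14.7 to 18.4, 25.7 and 29.2 FPKM (1.38-fold, adjusted p = 0.0328). The groups overlapped, and the call was lost without E16.5 FL replicate 1 (adjusted p = 0.0549), E16.5 FL replicate 3 (0.149), Perinatal BM replicate 2 (0.103) or Perinatal BM replicate 3 (0.158). Markers of another cell type moved with Perinatal BM. All 6 mast cell markers had a mean of at least 1 FPKM there, and they summed to 3094, 1418 and 3869 FPKM in its libraries, against 11.4 to 58.5 in E16.5 FL and 87.3 to 143 in 1w BM. The mean level of the members in the same 3 Perinatal BM libraries was 4.56, 4.65 and 4.73, in the same order. Neutrophil markers summed to 1011 to 2343 in Perinatal BM, 730 to 1534 in E16.5 FL and 2840 to 4372 in 1w BM. B cell precursor markers summed to 171, 202 and 68.6 in E16.5 FL and to 30.3, 25.6 and 69.4 in Perinatal BM. The HSPC marker sum was 1124 to 1201 in Perinatal BM and 961 to 1019 in E16.5 FL, but single markers went both ways. Kit was at 177 to 184 FPKM in Perinatal BM against 102 to 139, Flt3 at 172 to 195 against 146 to 151, and Gata2 at 89.4 to 99.2 against 36.3 to 41.8. Hlf was at 37.22 to 49.35 against 63.86 to 84.65, Mecom at 4.58 to 7.38 against 12.9 to 16.1, and Procr at 6.75 to 9.15 against 14.5 to 18.9. The part of mast cell, neutrophil and B cell precursor transcripts in the result was not tested.

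**Figure D3:**
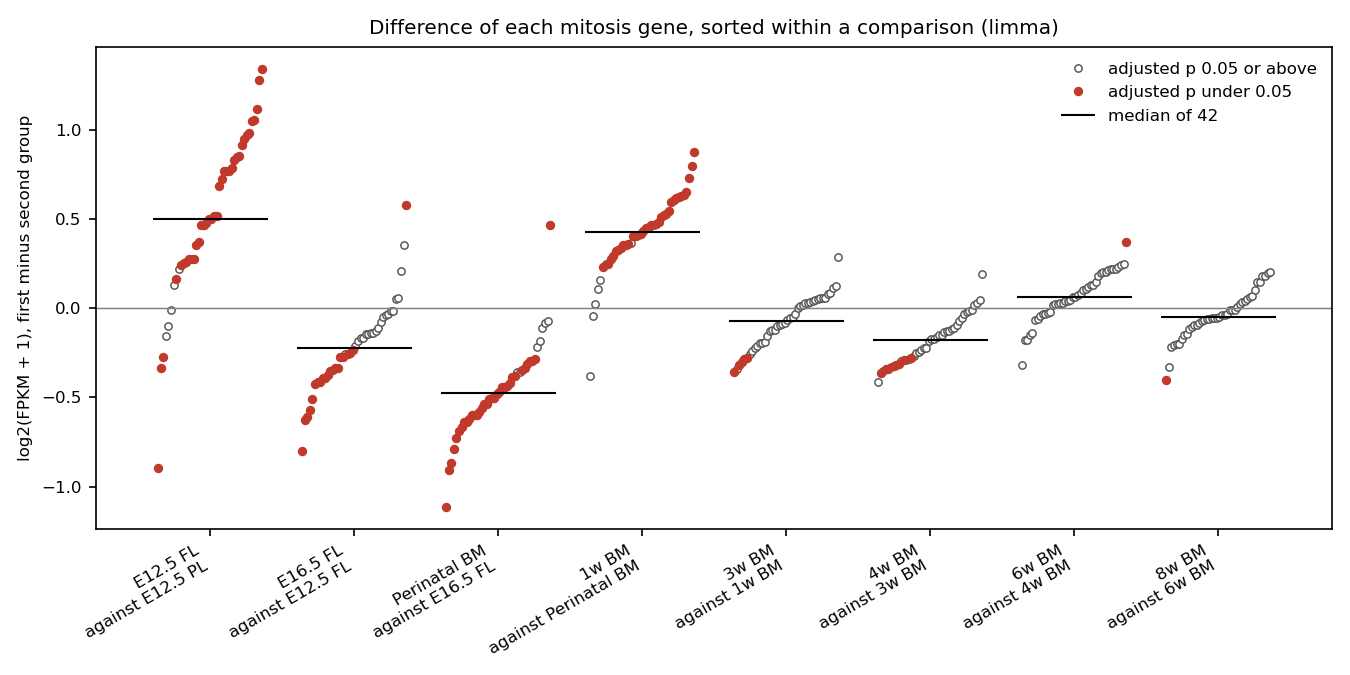
Difference in log2(FPKM + 1) of each of the 42 genes, first minus second group, sorted within each of 8 comparisons between neighbouring groups (filled, adjusted p under 0.05; open, not past the threshold; line, median of 42). Medians are -0.48 from E16.5 FL to Perinatal BM and 0.43 from Perinatal BM to 1w BM, and nearer to 0 in the later steps.

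From Perinatal BM to 1w BM, 34 members rose and none fell, where 8.60% of all genes rose and 8.97% fell. The median difference was 0.43, against -0.0013 for all genes. With any one library left out the count that rose was 23 to 33, lowest without 1w BM replicate 3. For the fall, limma also gave 1 member at an unadjusted p under 0.05, Pttg1 (18.3 ± 2.6 after 24.4 ± 5.5 FPKM), and 1 called member without Perinatal BM replicate 1. Plk1 rose from 17.9, 17.7 and 22.7 to 35.4, 34.2 and 39.4 FPKM (1.83-fold, adjusted p = 6.25e-07). Hmmr rose from 9.61, 9.31 and 10.5 to 18.9, 16.0 and 18.6 (1.74-fold, adjusted p = 5.33e-06), and Prc1 rose 1.66-fold to 31.4 ± 2.6 (adjusted p = 5.77e-06). All 7 spindle motor genes and all 5 checkpoint genes rose, 5 of 7 mitotic entry, 5 of 7 centromere and kinetochore, 4 of 5 Aurora, Polo and passenger, 4 of 5 cytokinesis and 3 of 4 anaphase genes did. The counts of 7 motor and 4 cytokinesis genes were the same with every library left out in turn. That of centromere and kinetochore genes was 1, and that of Aurora, Polo and passenger genes 2, without 1w BM replicate 3 or Perinatal BM replicate 1. Mitotic entry genes numbered 2 without 1w BM replicate 3, checkpoint genes 3 without Perinatal BM replicate 1, and anaphase genes 2 without 1w BM replicate 2, 1w BM replicate 3, Perinatal BM replicate 1 or Perinatal BM replicate 2. Cenpa was at 89.8 ± 7.4 and then 91.2 ± 7.5 FPKM and Kif23 at 31.5 ± 2.3 and then 30.5 ± 1.4, and neither passed.

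The fall into Perinatal BM and the rise out of it share the Perinatal BM libraries, so they are not independent. Set directly against E16.5 FL, 1w BM had 2 members higher and 4 lower, where 10.4% of all genes were called higher and 11.9% lower, and the median difference of the members was -0.03. Aurkb (58.2 ± 4.6 against 48.3 ± 4.6 FPKM) and Mad2l1 (46.8 ± 1.3 against 38.6 ± 2.2) were higher in 1w BM. Neither of these calls held without E16.5 FL replicate 1 (adjusted p = 0.0857 and 0.0837) or E16.5 FL replicate 3 (0.134 and 0.0713). Leaving out 1w BM replicate 3 ended both as well (0.154 and 0.0728), and leaving out 1w BM replicate 1 ended that of Mad2l1 (0.0648). Cenpa was lower at 91.2 ± 7.5 against 117 ± 4 (1.29-fold, adjusted p = 0.00645) and Kif23 at 30.5 ± 1.4 against 40.3 ± 1.5 (1.31-fold, adjusted p = 0.00724). Hmmr and Ube2c were lower too, and both calls were lost without E16.5 FL replicate 2 (adjusted p = 0.116 and 0.173) or 1w BM replicate 2 (0.117 and 0.0899). That of Ube2c was also lost without E16.5 FL replicate 1 (0.117) or 1w BM replicate 1 (0.157). The share of members called between these 2 groups was thus no higher than the background.

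**Figure D4:**
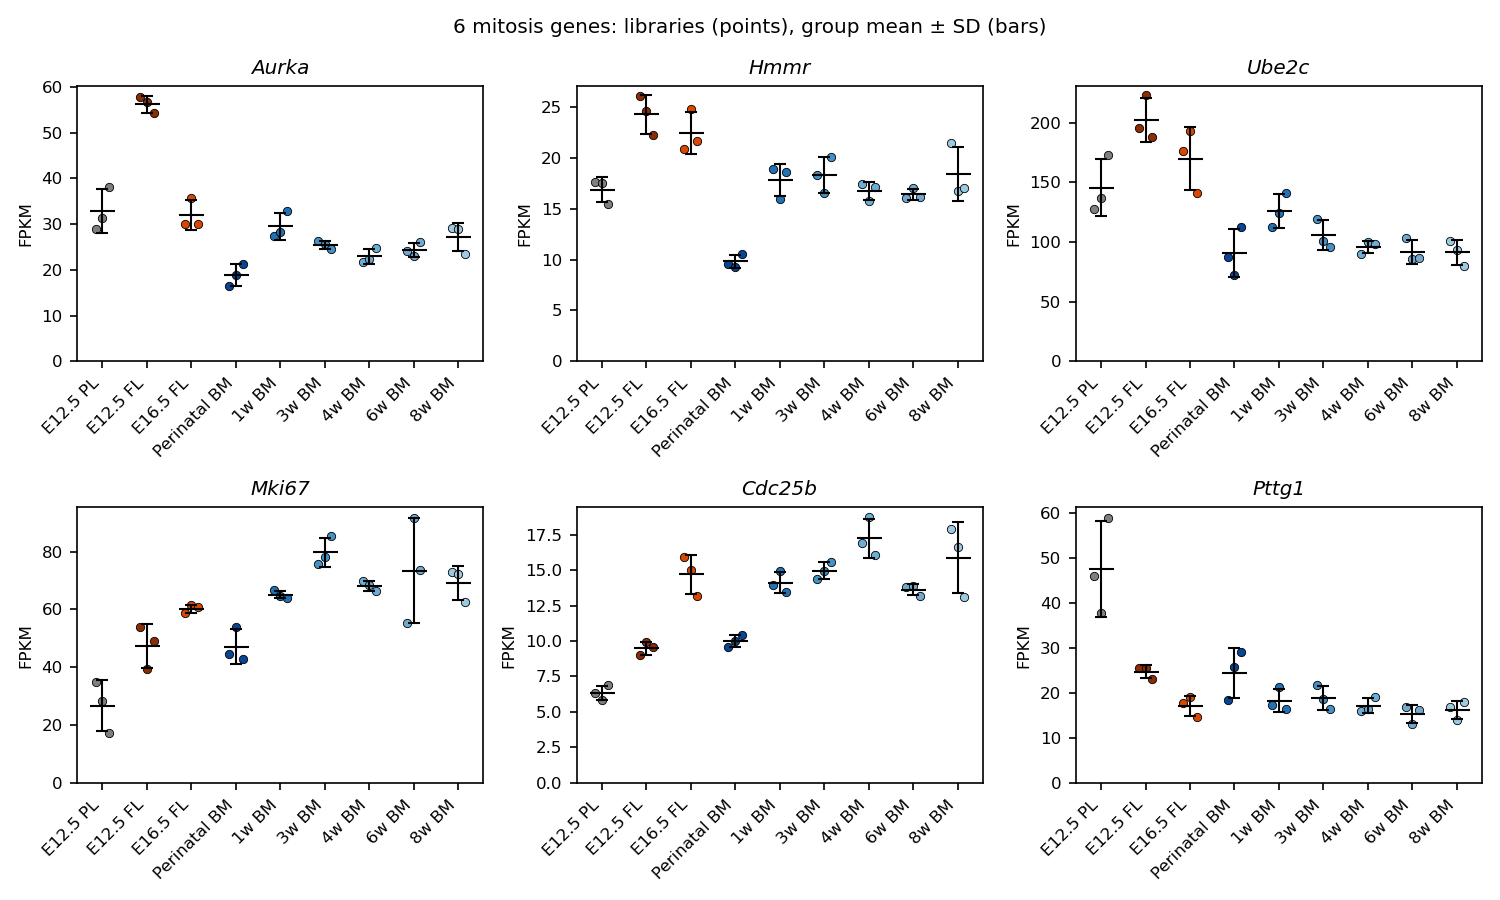
FPKM of 6 members in each library (points) by group, with mean and SD (bars, n = 3), each axis starting at 0. Aurka, Hmmr and Ube2c fall into Perinatal BM. Mki67 and Cdc25b stand higher in 8w BM (69.3 and 15.9 FPKM) than in E12.5 FL (47.4 and 9.50). Pttg1 is highest in E12.5 PL.

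Steps after 1 week were smaller. From 1w to 3w BM, 5 members fell and none rose, where 4.76% of all genes fell and 5.69% rose. The 5 were Ccnb2, Cdc20, Kif20a, Anln and Cenpa. At an unadjusted p under 0.05, limma gave 9 members lower and 0 higher. For such counts, here and in the later steps, no share of all genes was computed, so they cannot be set against a background. Ccnb2 fell from 70.9 ± 1.2 to 55.1 ± 2.6 FPKM (1.28-fold, adjusted p = 0.00608) and Cdc20, the activator of the APC/C in mitosis, from 78.2 ± 2.8 to 64.4 ± 0.5 (1.21-fold, adjusted p = 0.0181). The count of 5 was 1 without 1w BM replicate 3. It was 2 without 1w BM replicate 2, 3w BM replicate 1 or 3w BM replicate 2, and 3 without 1w BM replicate 1 or 3w BM replicate 3, and the call of Ccnb2 was the one that held throughout. Late neutrophil genes were lower in 3w BM. S100a8 was at 339 to 608 FPKM in 1w BM and 24.4 to 32.9 in 3w BM, S100a9 at 114 to 178 and 5.36 to 7.82, and Camp at 22.1 to 48.4 and 0.826 to 2.34, and their part in the result was not tested.

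From 3w to 4w BM, 8 members fell and none rose, where 4.56% of all genes fell and 4.72% rose. The 8 were Cdk1, Plk1, Incenp, Bub1, Kif2c, Tpx2, Cdc20 and Espl1. Limma gave 19 members lower and 0 higher at an unadjusted p under 0.05, again without a share of all genes. Cdc20 fell further, from 63.8, 64.6 and 64.7 to 52.7, 48.0 and 53.8 FPKM (1.25-fold, adjusted p = 0.00987), and Plk1 from 31.7, 28.6 and 33.3 to 24.1, 24.4 and 24.6 (1.27-fold, adjusted p = 0.0216). Only the call of Cdc20 held with every library left out in turn. The count of 8 was 1 without 3w BM replicate 1, 3w BM replicate 3 or 4w BM replicate 1, 3 without 4w BM replicate 3, and 5 under a median-of-ratios scaling. Neutrophil markers moved with this step. Their summed FPKM was 2338 to 2529 in 3w BM and 642, 1989 and 671 in the 4w BM libraries, and their part in the result was not tested.

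From 4w to 6w BM, 1 member rose and none fell, where 2.59% of all genes rose and 1.35% fell. Limma gave 9 members higher and 1 lower at an unadjusted p under 0.05. The called member was Kif2c, a microtubule-depolymerising motor, at 11.95 ± 1.37 and then 15.7 ± 1.6 FPKM (1.29-fold, adjusted p = 0.0450). That call was lost without 4w BM replicate 1 (adjusted p = 0.0810), 4w BM replicate 2 (0.163), 4w BM replicate 3 (0.0610), 6w BM replicate 2 (0.218) or 6w BM replicate 3 (0.111). From 6w to 8w BM, 1 member fell and none rose, where 5.21% of all genes fell and 2.97% rose. At an unadjusted p under 0.05, limma gave 3 members lower and 1 higher. The member called was Kif23, the cytokinesis motor, from 32.3, 41.2 and 34.7 to 29.3, 27.03 and 24.6 FPKM (1.32-fold, adjusted p = 0.0143). Its call was lost without 6w BM replicate 2 (adjusted p = 0.133) or 8w BM replicate 3 (0.0708). Without 8w BM replicate 3, Cdc25b was called higher in 8w BM (adjusted p = 0.0284).

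Across the whole interval from E16.5 FL to 8w BM, 23 members fell and none rose, where 19.7% of all genes fell and 20.5% rose. The median difference was -0.30, against 0.00 for all genes, and the count was 18 without 8w BM replicate 3. Limma gave 26 members lower and 0 higher at an unadjusted p under 0.05. B cell precursor markers summed to 68.6 to 202 FPKM in E16.5 FL libraries and 19.9 to 22.5 in 8w BM, macrophage markers to 40.7 to 47.7 and 96.5 to 146, and neutrophil markers to 730 to 1534 and 1729 to 2058. The neutrophil sum rose through Mpo (436 to 730 and then 1403 to 1638) and Elane (51.0 to 188 and then 313 to 431). S100a8 (145 to 381 and then 3.71 to 9.37), S100a9, Ngp, Camp and Ltf were lower in 8w BM. The part of all these markers in the fall to 8w BM was not tested. Ube2c fell from 176, 193 and 141 to 101, 93.0 and 80.2 FPKM (1.84-fold, adjusted p = 4.24e-05). Cenpa fell from 121, 118 and 114 to 72.4, 67.3 and 62.7 (1.73-fold, adjusted p = 5.01e-07), and Cdc25c from 10.6 ± 1.7 to 6.07 ± 0.93 (1.64-fold, adjusted p = 0.000295). Hmmr, which fell furthest into Perinatal BM, was back at 18.4 ± 2.6 FPKM in 8w BM against 22.4 ± 2.1 in E16.5 FL. The groups overlapped, and its call (1.21-fold lower, adjusted p = 0.0253) was lost without E16.5 FL replicate 2 (adjusted p = 0.138), 8w BM replicate 2 (0.126) or 8w BM replicate 3 (0.106). Aurkb stood at 48.3 ± 4.6 and 48.9 ± 6.3, Mad2l1 at 38.6 ± 2.2 and 40.6 ± 3.0, and Nuf2 at 20.3 ± 1.2 and 19.5 ± 2.5 FPKM, none of them past the threshold.

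The courses of Pttg1, Cdc25b and Mki67 departed from the common one. Correlation of each member with the mean of the other 41 over the 27 libraries, which share group structure, was 0.94 for Tpx2 and 0.91 for Bub1, and was lowest for Pttg1 (-0.13), Cdc25b (0.00) and Mki67 (0.07). Without the E12.5 PL libraries, over 24 libraries, it was 0.16 for Pttg1, -0.20 for Cdc25b and -0.11 for Mki67, while that of Birc5 moved from 0.33 to 0.75.

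Mki67 was at 54.1, 39.3 and 48.9 FPKM in E12.5 FL, 58.8, 61.5 and 60.7 in E16.5 FL, 66.6, 64.7 and 64.1 in 1w BM and 75.8, 78.3 and 85.5 in 3w BM. Every 3w BM library thus exceeded every fetal library. None of its steps from E12.5 FL onwards passed the threshold, with an SE of 0.18 (log2), above that of every member but Cenpf (0.19). Set against the mean of the other members, Mki67 stood 0.27 ± 0.21 above them (log2, SD, n = 3) in E12.5 FL, 0.85 ± 0.05 in E16.5 FL, 1.01 ± 0.07 in 1w BM, 1.39 ± 0.07 in 3w BM and 1.34 ± 0.05 in 8w BM. Mki67 fell from E16.5 FL to Perinatal BM (44.5, 54.0 and 42.9 FPKM, adjusted p = 0.0389) and rose from there to 1w BM (adjusted p = 0.0139) in the fit without the E12.5 PL libraries. With those libraries in the fit, the adjusted p-values were 0.140 and 0.0709. Mki67 is long, and over the 42 members the correlation of log2 exonic length with the difference was 0.38 from E12.5 FL to E16.5 FL and 0.42 from 1w to 3w BM, against 0.08 and 0.08 over 12786 other genes. These correlations are across genes, which are not independent replicates, and the part of length was not tested.

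Cdc25b, a phosphatase that activates Cdk1 at the centrosome, was the only member lowest in E12.5 FL among the 8 groups other than E12.5 PL (9.50 ± 0.46 FPKM). It was at 14.7 ± 1.4 in E16.5 FL and fell to 10.01 ± 0.45 in Perinatal BM (1.42-fold, adjusted p = 0.000306). It rose to 14.1 ± 0.7 in 1w BM (1.37-fold, adjusted p = 0.00176), and stood at 17.3 ± 1.4 in 4w BM, its highest group. It thus took part in the Perinatal BM fall while running against the fetal one. Its relative Cdc25c went the other way over age, from 14.5 ± 1.0 FPKM in E12.5 FL to 6.07 ± 0.93 in 8w BM. Pttg1 was highest in E12.5 PL (47.6 ± 10.7) and, among bone marrow groups, in Perinatal BM (24.4 ± 5.5), and lay between 15.4 and 18.9 FPKM in the means of the other bone marrow groups. Foxm1, the activator of G2/M genes, varied least, with means from 18.4 ± 1.9 in Perinatal BM to 22.8 FPKM in 3w BM outside E12.5 PL.

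The members were then set beside 4 other lists. These were written from general knowledge, but with earlier results of these data known. Differences between lists were not tested. Of 65 other mitosis genes, 34 fell and none rose into Perinatal BM, with a median of -0.27 against -0.48 for the members (14.2% of all genes fell and 14.2% rose). In a fit of the 6 libraries alone 22 fell. From there to 1w BM 35 rose and none fell, with a median of 0.32 (8.60% of all genes rose and 8.97% fell). Limma gave 40 of these genes lower and 0 higher in Perinatal BM at an unadjusted p under 0.05, and 49 higher and 0 lower in 1w BM. Ckap2l, a spindle protein, rose from 11.5 ± 2.6 to 20.6 ± 1.4 FPKM between Perinatal BM and 1w BM (1.76-fold, adjusted p = 2.32e-05), and Cdca2 fell from 19.3 ± 2.1 to 12.54 ± 0.39 into Perinatal BM (1.497-fold, adjusted p = 5.55e-05).

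From E12.5 FL to E16.5 FL 20 of the other mitosis genes fell and 3 rose (15.6% of all genes fell and 19.0% rose). The falls numbered 11 without E16.5 FL replicate 1 and 13 without E12.5 FL replicate 1 or E16.5 FL replicate 3. From E16.5 FL to 8w BM 22 fell and 4 rose (19.7% of all genes fell and 20.5% rose), or 14 fell without 8w BM replicate 3.

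Of 41 DNA replication genes, which act in S phase, 26 fell and none rose from E12.5 FL to E16.5 FL. Of all genes, 15.6% fell and 19.0% rose. The list's median was -0.24, and 17 fell without E16.5 FL replicate 3. Limma gave 28 lower and 0 higher at an unadjusted p under 0.05. From E16.5 FL to Perinatal BM 7 fell and 3 rose, with a median of -0.07, where 14.2% of all genes fell and 14.2% rose. These counts lay near that background. Uhrf1, which maintains DNA methylation behind the fork, fell 1.23-fold (83.1 ± 4.7 against 102 ± 2 FPKM, adjusted p = 0.00547) and Pola1, the primase-associated polymerase, fell 1.31-fold (adjusted p = 0.00779). Ccne1, the cyclin of S phase entry, rose from 8.35 ± 1.26 to 11.5 ± 1.0 FPKM (1.34-fold, adjusted p = 0.0131), a call lost without E16.5 FL replicate 1. The list's falls numbered 2 without Perinatal BM replicate 1, 3 without E16.5 FL replicate 2 or 3, and 4 without Perinatal BM replicate 2 or 3. They numbered 3 under median-of-ratios scaling, 4 without a filter and 2 in a fit of the 6 libraries alone. Its rises numbered 0 without E16.5 FL replicate 1 and 1 without E16.5 FL replicate 3.

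Per library, the mean of the mitosis genes minus that of the replication genes was -0.70 ± 0.07 (log2, SD, n = 3) in Perinatal BM, -0.30 ± 0.03 in E16.5 FL and -0.50 ± 0.01 in 1w BM, with no overlap between the groups. It ranged from -0.58 to -0.49 in the means of the older bone marrow groups. From Perinatal BM to 1w BM 17 replication genes rose and none fell, where 8.60% of all genes rose and 8.97% fell. Their median was 0.21, and limma gave 26 higher and 0 lower at an unadjusted p under 0.05. The replication list's median difference between E16.5 FL and 8w BM was 0.01, against -0.30 for the mitosis genes.

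A list of 22 regulators of this programme held the MuvB, E2F and retinoblastoma families and also Nfya, which is outside them. Of these, 5 fell and 3 rose into Perinatal BM, where 14.2% of all genes fell and 14.2% rose. The counts were not tested against those shares. The rises numbered 1 without E16.5 FL replicate 1, E16.5 FL replicate 3, Perinatal BM replicate 1 or Perinatal BM replicate 2. E2f5 fell from 12.8 ± 1.4 to 7.03 ± 0.99 FPKM (1.72-fold, adjusted p = 0.000649), and Nfya, a subunit of the CCAAT-binding factor, from 66.4 ± 3.4 to 48.6 ± 1.1 (1.36-fold, adjusted p = 0.000787). Rbl2, which encodes the p130 pocket protein of the repressor complex of resting cells, rose from 13.2 ± 0.4 to 18.9 ± 2.9 (1.40-fold, adjusted p = 0.00355). Rbl2 also rose from E12.5 FL to E16.5 FL (from 8.64 ± 0.41, 1.47-fold, adjusted p = 0.000981), and was at 22.1 ± 2.0 FPKM in 8w BM (1.63-fold above E16.5 FL, adjusted p = 4.80e-05). Of 22 APC/C subunits and mitotic brakes, 6 fell and 1 rose into Perinatal BM, where 14.2% of all genes fell and 14.2% rose. Only 3 fell without E16.5 FL replicate 2 or Perinatal BM replicate 1. The rises were 2 without Perinatal BM replicate 3. The subunit Cdc23 fell 1.29-fold (adjusted p = 0.000226) and rose 1.25-fold to 1w BM (adjusted p = 0.00176).

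The 10 genes outside the members whose log2(FPKM + 1) correlated best with the members' mean over the 27 libraries were C330027C09Rik, Eprs, Ncaph, Gen1, Rprd1a, Cbx1, Cse1l, Ruvbl1, Fbxo5 and Pelp1 (r from 0.841 to 0.939). These libraries share groups, so the values describe likeness of pattern only. Ncaph, a condensin subunit, and Fbxo5, an inhibitor of the APC/C, belong to the lists above. C330027C09Rik is listed in RefSeq as Cip2a.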

How the data were processed

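The data are described as bulk RNA sequencing of HSPCs, 27 libraries in 9 groups of 3, though the markers of E12.5 PL depart from this. The labels' protocols give Tri Pure for total RNA and Illumina's TruSeq RNA kit for the libraries. Trimming with Trim Galore, read checks with FastQC, STAR 2.7, HTSeq 0.6.1p1 and GRCm38 are named in the submitters' processing notes. Values are FPKM as deposited by the authors. How FPKM were computed, and with which annotation and strand setting, the sources used here do not say, so overlapping genes cannot be told apart. Depth is unknown, and the number of libraries limits precision.

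The scale used was log2(FPKM + 1). A gene entered the test when 3 or more libraries reached an FPKM of 1 (13350 genes). The limma package (3.58.1, R 4.3.3; lmFit and eBayes with trend, 2-sided) fitted 9 group means over all libraries, with 18 residual degrees of freedom, and p-values were adjusted by Benjamini-Hochberg within each of 10 comparisons, several of which have a group in common. Calling was tested on simulated data. Exonic lengths came from GENCODE vM21 and promoters from RefSeq (GRCm38.p6). Python 3.11.15 was used for summaries and figures.

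The members and lists were chosen with earlier results of these data known. All members could be named, up to 3 genes per direction with the smallest adjusted p in each other list, and the 10 genes most like the members. Each choice was varied in turn: the pseudocount (0.1), the filter (none, or 5 FPKM), the scaling (median of ratios), the samples fitted (6 compared libraries alone, no E12.5 PL, each library left out) and a replicate block. Chosen after seeing the data were the length split, the paired motifs and these alternatives for the other lists.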

Additional observations from a re-analysis of the deposited data

How the results depend on the processing

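A pseudocount of 0.1 and a filter at 5 FPKM left every count of the members within 1.5 times. Each median shifted by less than the larger SD of the members' library means in the groups compared. No direction of a called member reversed under any alternative. The counts that moved were small ones. Without a filter, members higher from E16.5 FL to Perinatal BM went from 1 to 0, lower from 1w to 3w BM from 5 to 3, and higher from 4w to 6w BM from 1 to 0. Under median-of-ratios scaling, 5 in place of 8 fell from 3w to 4w BM (median -0.1269), and from 4w to 6w BM 0 rose and 1 fell. Without E12.5 PL, 2 rose from E12.5 FL to E16.5 FL and 1 fell from 4w to 6w BM. In fits of the 6 compared libraries alone, 3 rose from E12.5 FL to E16.5 FL, 0 into Perinatal BM, 1 from 1w to 3w BM and 0 from 4w to 6w BM, and 0 fell from 6w to 8w BM. Replicate numbers did not pair the libraries (residual correlations from -0.205 to 0.227, and 8 of 27 closest to their own number). With the replicate number as a block, 0 members rose from 4w to 6w BM and 5 of 420 single calls were lost. Among the calls the text names, those of Birc5 from E12.5 PL to E12.5 FL (adjusted p = 0.0524), of Pttg1 into Perinatal BM (0.0739), of Ube2c from E16.5 FL to 1w BM (0.0952) and of Kif2c from 4w to 6w BM (0.0830) were also lost without a filter. Those of Pttg1 (0.0728), of Kif2c (0.179), of Kif23 from 6w to 8w BM (0.0757) and of Hmmr from E16.5 FL to 8w BM (0.0684) were lost in limma fits of the 6 libraries alone. Without a filter, Cenpa (0.0814) and Kif20a (0.0566) from 1w to 3w BM and Incenp (0.0518) and Kif2c (0.0718) from 3w to 4w BM lost theirs, and Spc25 did into Perinatal BM (0.0710). In fits of the 6 libraries alone, Cdk1 (0.0518), Kif2c (0.0682), Tpx2 (0.0514) and Espl1 (0.0624) from 3w to 4w BM and Spc25 (0.0878) and Sgol1 (0.0660) into Perinatal BM lost theirs. From Perinatal BM to 1w BM, 7 of the 34 calls were lost without a filter, 6 with the 6 libraries alone and 2 under median-of-ratios scaling. The role counts from E12.5 FL to E16.5 FL include Bub1 and Espl1, lost without a filter (0.0670 and 0.0558) and under that scaling (0.0668 and 0.0673). They also include Anln, lost under that scaling (0.0770).

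When each library was left out in turn, members higher from E16.5 FL to Perinatal BM were 0 to 1, higher and lower from E16.5 FL to 1w BM 0 to 2 and 2 to 4, and lower from Perinatal BM to 1w BM 0 to 1. Members lower from 1w to 3w BM were 1 to 3 and from 3w to 4w BM 1 to 8 (median -0.2172 to -0.1712). Members higher from 4w to 6w BM were 0 to 1, and higher and lower from 6w to 8w BM 0 to 1 and 0 to 1. The cause of these shifts was not tested. Upstream of the start alone, 12 of 35 promoters held TTTGAA, 2 TTCGAA, 13 either and 12 either with CCAAT. The unknown depth leaves no way to give counting error.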
